A study of Mus musculus with 12 samples.

Results

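The 9 genes described here encode Adcy3, the adenylyl cyclase of the neuronal primary cilium, and proteins of the BBSome with its recruiting GTPase, namely Bbs1, Bbs2, Bbs4, Bbs5, Bbs7, Bbs9, Ttc8 and Arl6. They were chosen by symbol for their known function, from 55809 gene symbols listed in each of 2 tables of read counts. All 9 were listed in both tables, and all 9 passed the filter on low counts in both, where 15228 and 15408 genes were tested. The 12 libraries formed 4 groups of 3. TOM positive and TOM negative cells were sorted from hypothalamus of 4-week-old, untreated mice of the genotype Mc4r-Cre; Ai14. In these mice Cre is made under the control of Mc4r, the gene of the melanocortin 4 receptor, and turns on the red reporter tdTomato (TOM) carried by Ai14. The AAV-Cre and AAV-GFP groups were sorted from the hypothalamic paraventricular nucleus (PVH) of 26-week-old mice with the genotype Otp fl/fl; Ai14, in which an adeno-associated virus (AAV) had been injected 12 weeks earlier. AAV-Cre cells were gated on TOM and AAV-GFP cells on GFP, so virus and gate changed together, and both groups carried the floxed Otp alleles and Ai14. The promoter that drives Cre or GFP in the virus is not given in the sources used here, nor is it stated that replicates were separate animals. The p-values below therefore measure spread among libraries that may be technical replicates. The study asked which factors regulate Mc4r and what changed in PVH cells after AAV-Cre.

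The primary cilium is a single antenna-like projection found on most neurons and on many glial cells. The melanocortin 4 receptor and Adcy3 both localise there, and cyclic AMP made by Adcy3 carries the receptor's signal. The BBSome is a coat-like complex that carries membrane proteins, including G protein-coupled receptors, out of and along the cilium, and Arl6 (also called BBS3) in its GTP-bound state recruits it to the membrane. Loss of BBSome genes causes Bardet-Biedl syndrome in humans, in which obesity is a cardinal feature, and loss of Adcy3 causes obesity in mice and humans. Motile cilia, which ependymal cells of the ventricle wall bear in bundles, share intraflagellar transport and the BBSome with primary cilia.

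Library totals ran from 13506018 to 27827853 counts. AAV-GFP libraries differed most among themselves, with a chi-square per degree of freedom of 135 to 261 between pairs, where pairs of the other groups had at most 97.1. In AAV-GFP replicate 3 mitochondrially encoded genes took 7.20% of counts, where the other AAV libraries had 1.44% to 2.63%. Expression is given as CPM, the count of a gene per 1000000 counts of its library, after scaling each table on its own. Oligodendrocyte markers outweighed neuronal ones in every library. In TOM positive libraries 10 neuronal markers summed to between 411 and 543 CPM and 10 oligodendrocyte markers to between 82104.5 and 92841 CPM, against 71.9 to 92.5 CPM and 19866 to 26255 CPM in TOM negative libraries. TOM negative libraries held more microglial mRNA, with 418 to 982 CPM over 10 markers in TOM positive, against 24826 to 29321 CPM in TOM negative libraries. Astrocyte markers summed to 10742 to 14909 CPM in TOM positive, against 21068 to 22840 CPM in TOM negative libraries. Oligodendrocyte precursor markers summed to 1621 to 2165 CPM in TOM positive, against 846 to 897 CPM in TOM negative libraries. Both of these sums overlapped between the AAV groups. All 5 blood markers fell in TOM positive cells, with sums of 224 to 444 CPM in TOM positive, against 22604 to 51385 CPM in TOM negative libraries. In the AAV groups the neuronal sums were 2246 to 2682 CPM after AAV-Cre, against 1322 to 2461 CPM after AAV-GFP, and the oligodendrocyte sums 48928 to 62833 CPM after AAV-Cre, against 14774 to 53960 CPM after AAV-GFP. Ependymal markers, 10 genes, summed to 15.9 to 36.4 CPM after AAV-Cre, against 1093 to 2162 CPM after AAV-GFP. Mc4r itself had 63, 0 and 0 counts in TOM positive and 0 in each TOM negative library, and 0 in each AAV-Cre library against 22, 11 and 13 in the AAV-GFP libraries. Otp, the targeted gene, had 12, 9 and 10 counts after AAV-Cre, against 91, 102 and 38 after AAV-GFP (edgeR adjusted p = 0.134). In the TOM table Otp had 36, 27 and 1 counts in TOM positive and 0 in each TOM negative library, too few to be tested. In such bulk samples, fewer cells of a type and less RNA per cell cannot be told apart, which holds for every result below.

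Measured as CPM per kilobase of exon, Arl6 had the highest level of the 9 genes in TOM positive, TOM negative and AAV-GFP cells, and Bbs4 in AAV-Cre cells. In TOM positive cells Arl6 reached 13.2 ± 0.74 CPM per kilobase (SD, n = 3, as for each mean below). The next 3, Bbs5 at 6.31 ± 2.05, Bbs2 at 6.20 ± 0.29 and Ttc8 at 5.75 ± 2.75 CPM per kilobase, did not differ from each other beyond their spread. Bbs7 followed at 3.79 ± 1.01, Bbs9 at 2.54 ± 0.32 and Bbs4 at 2.20 ± 0.65 CPM per kilobase. Adcy3 and Bbs1 were lowest, at 1.73 ± 0.93 and 1.02 ± 0.86 CPM per kilobase, each within the other's spread. Arl6 stood above 77.9% of the genes tested on this scale and Bbs1 above 26.7%.

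In TOM negative cells Arl6 led with 8.46 ± 2.98 CPM per kilobase, and the other genes ran without a gap beyond their spread from Bbs9 at 4.39 ± 1.92 down to Bbs1 at 0.90 ± 0.23 CPM per kilobase. In AAV-Cre cells Bbs4 at 8.83 ± 3.51, Bbs2 at 8.28 ± 1.61, Arl6 at 6.73 ± 1.06 and Ttc8 at 6.32 ± 1.35 CPM per kilobase overlapped, with Adcy3 at 2.21 ± 0.32 and Bbs1 at 1.86 ± 1.40 at the low end. In AAV-GFP cells Arl6 reached 22.1 ± 2.28 CPM per kilobase, ahead of Bbs4 at 11.5 ± 4.80 and Ttc8 at 10.6 ± 1.88, with Adcy3 at 2.86 ± 2.43 and Bbs1 at 2.50 ± 1.30 CPM per kilobase again lowest. These lengths count every annotated exon base. With the length of the longest protein-coding transcript instead, Arl6 was highest in 2 of the 4 groups, TOM positive and TOM negative, and Bbs4 in the other two, while Bbs1 stayed lowest in all 4.

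Bbs4, which encodes the subunit that binds the pericentriolar protein Pcm1, stood at different CPM levels in the 2 tables. It averaged 53.3 ± 21.2 CPM after AAV-Cre, against 69.6 ± 29.0 CPM after AAV-GFP, while TOM positive and TOM negative cells had 13.3 ± 3.94 CPM and 14.0 ± 5.60 CPM in that order. Bbs4 was not alone in this. Bbs2 averaged 27.4 ± 5.31 and 32.2 ± 7.53 CPM in the AAV groups, against 20.5 ± 0.95 and 12.8 ± 3.25 CPM, in the same order. Arl6 went the other way after AAV-Cre, at 14.1 ± 2.22 CPM, against 27.8 ± 1.56 CPM in TOM positive cells. The tables were scaled separately and differ in age, dissection and genotype, so no test was made between them.

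In the GENCODE vM30 annotation of the files each of the 9 genes has 1 position. Adcy3 spans chromosome 12 from 4183103 to 4263525 on the plus strand, and Ttc8 lies on the same chromosome from 98886833 to 98949497, also on the plus strand. Bbs4 spans chromosome 9 from 59229273 to 59260791 on the minus strand and Bbs9 from 22387011 to 22799576 on the plus strand. Bbs5 spans chromosome 2 from 69477515 to 69497915 on the plus strand. On the minus strand, Bbs7 spans chromosome 3 from 36627291 to 36667626, Bbs2 chromosome 8 from 94794582 to 94825556, Arl6 chromosome 16 from 59433312 to 59459754, and Bbs1 chromosome 19 from 4936906 to 4956656. Values are sums over all exons of a gene, so isoforms are not told apart.

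**Figure D1:**
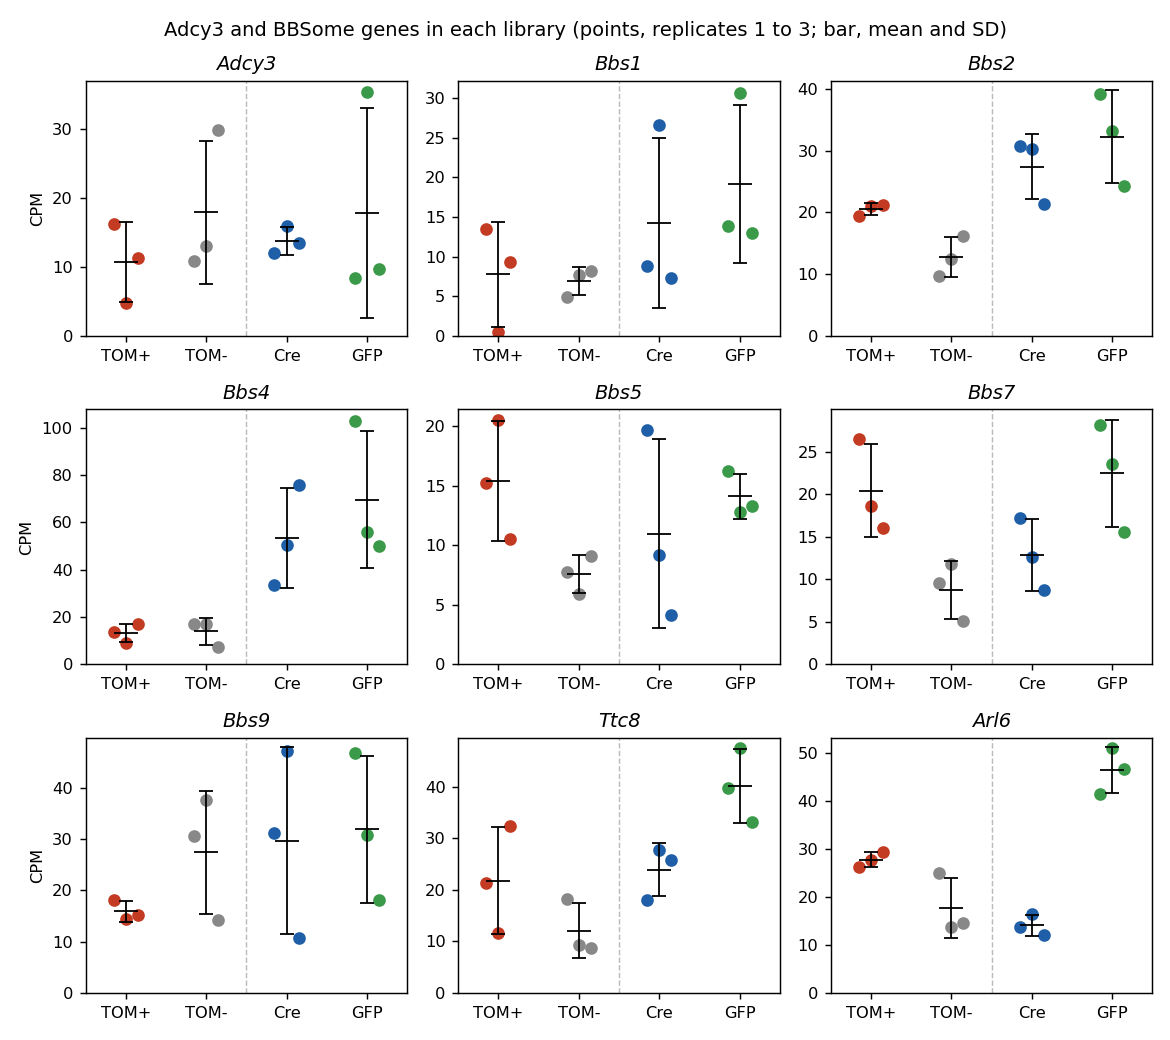
CPM (linear axes) of each of the 9 genes in the 12 libraries, with TOM positive (TOM+), TOM negative (TOM-), AAV-Cre (Cre) and AAV-GFP (GFP) from left to right. Points are replicates 1 to 3 from left to right, bars are mean and SD, and the dashed line separates the 2 tables. Arl6 lies between 12.1 and 16.5 CPM in all AAV-Cre libraries and between 41.5 and 51.0 CPM in all AAV-GFP libraries.

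Several of these genes were uneven between libraries of the same group. The plot of the 9 genes by library shows the plainest case in Bbs1, the subunit that contacts Arl6, which had 263, 16 and 281 counts in TOM positive replicates 1, 2 and 3. Adcy3 had 164, 488 and 138 counts in the AAV-GFP libraries, so that replicate 2 alone stood out. The coefficient of variation of CPM over the 9 genes had a median of 29.7% in TOM positive, 38.6% in TOM negative, 32.9% in AAV-Cre and 28.2% in AAV-GFP libraries. All genes within the same CPM range had medians of 36.4%, 29.9%, 34.0% and 30.7% in these groups in the same order. Bbs2 in TOM positive cells had the smallest spread of the 9 genes in any group, with 379, 618 and 635 counts and a coefficient of variation of 4.63%.

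In TOM positive against TOM negative cells, 0 of the 9 genes passed an edgeR adjusted p of 0.05, where 23.9% of all genes tested did (10.4% higher and 13.4% lower, or 1589 and 2046 genes, and 2204 and 1532 genes without scaling factors). The unadjusted p was under 0.05 for 1 of them, Bbs7, and DESeq2 also called 0, with 2 under an unadjusted p of 0.05. The estimates were higher in TOM positive cells for 6 genes and lower for 3, with a median log2 fold change of 0.65 over the 9 genes and -0.02 over all genes tested. Libraries of both sorts were fully separated in 4 of the 9 genes, or 44.4%, as they were in 46.4% of all genes tested. These were Bbs2, Bbs5, Bbs7 and Arl6, each higher in TOM positive cells. A gene that did not pass may still differ. In simulated data the fit recovered 0% of 2-fold changes. The real fit did call some changes under 2-fold, such as Rab8a at -0.75 on the log2 scale. The simulated rate is therefore not the recovery rate of the real data.

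Bbs7, a BBSome subunit with a beta-propeller fold, had 26.5, 18.6 and 16.0 CPM in TOM positive libraries and 9.56, 11.8 and 5.09 CPM in TOM negative libraries. Each TOM positive value was above each TOM negative one. The log2 fold change was 1.21 ± 0.45 (SE) with a 95% interval of 0.15 to 2.27, and it did not pass (edgeR adjusted p = 0.0962). Using library totals without scaling factors it did (log2 fold change 1.49, edgeR adjusted p = 0.0472), a setting that moves the median of all genes from -0.02 to 0.24. With 1 library left out the edgeR adjusted p ran from 0.113 to 0.235.

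Bbs5, a subunit with lipid-binding domains, had 15.2, 20.5 and 10.5 CPM in TOM positive and 7.80, 5.95 and 9.08 CPM in TOM negative libraries (log2 fold change 1.02 ± 0.44, edgeR adjusted p = 0.144). Bbs2, which pairs with Bbs7 in the complex, had 19.4, 21.1 and 21.1 CPM in TOM positive and 9.76, 12.5 and 16.2 CPM in TOM negative libraries (log2 fold change 0.68 ± 0.34, edgeR adjusted p = 0.205). Arl6 had 26.2, 27.7 and 29.3 CPM in TOM positive and 25.0, 13.7 and 14.6 CPM in TOM negative libraries. Its TOM negative replicate 1 lay close to the TOM positive values, and the log2 fold change was 0.65 ± 0.34 with an interval of -0.14 to 1.43 (edgeR adjusted p = 0.216).

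Adcy3 had 16.3, 4.77 and 11.3 CPM in TOM positive and 10.9, 13.1 and 29.9 CPM in TOM negative libraries, so the groups overlapped. Its log2 fold change of -0.74 ± 0.60 had an interval of -2.15 to 0.67 and did not pass (edgeR adjusted p = 0.429). Of its 6246 exon bases, 22.1% are shared with Cenpo on the opposite strand, and read pairs over both genes were not counted where the settings are known. Cenpo had 5.87 ± 2.41 CPM in TOM positive, against 5.89 ± 1.83 CPM in TOM negative cells. The remaining genes had intervals that included 0 and groups that overlapped. Their log2 fold changes were 0.17 for Bbs1, -0.07 for Bbs4, -0.79 for Bbs9 and 0.85 for Ttc8 (edgeR adjusted p between 0.216 and 0.931).

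**Figure D2:**
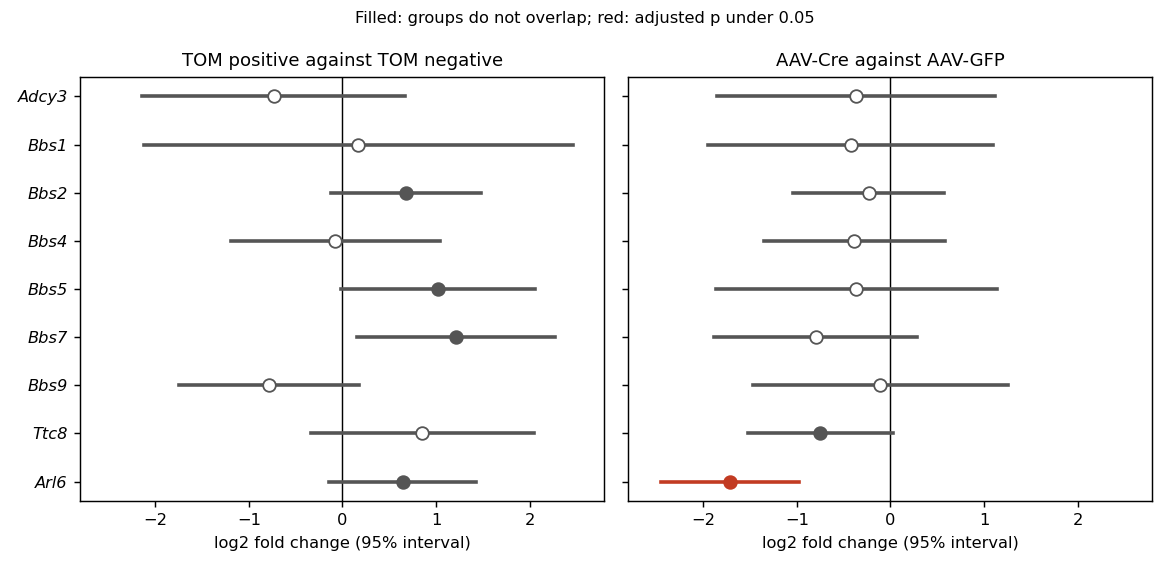
Log2 fold change of the 9 genes with its 95% interval from edgeR, for TOM positive against TOM negative (left) and AAV-Cre against AAV-GFP (right). Filled points mark genes whose groups do not overlap, and red marks an adjusted p under 0.05, which only Arl6 reached, at -1.71 after AAV-Cre.

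Other cilium genes did pass in this comparison, in which 23.9% of all genes tested passed, 10.4% higher and 13.4% lower. The counts of the lists below are to be read beside these shares. Of 17 genes for BBSome assembly and its partners 4 rose and 1 fell in TOM positive cells. Bbip1, a further BBSome subunit outside the 9, averaged 75.1 ± 6.13 CPM in TOM positive, against 31.8 ± 3.37 CPM in TOM negative cells, which is 1.24 ± 0.20 on the log2 scale (edgeR adjusted p = 0.00528). Cfap418, a ciliary gene mutated in a form of Bardet-Biedl syndrome, rose by 1.53 ± 0.26 and Rabl2, a small GTPase of ciliary transport, by 1.71 ± 0.32 on the log2 scale. Each of these 3 passed whichever 1 of the 6 libraries was left out. Pcm1, which encodes a scaffold of centriolar satellites, had a log2 fold change of 2.11 ± 0.59 and Rab8a, a GTPase of ciliary membrane delivery, of -0.75 ± 0.18. Both lost their calls without TOM positive replicate 1 or 3 or TOM negative replicate 1 or 2 (adjusted p at most 0.139 and 0.0886 in edgeR), and Rab8a also without scaling factors (edgeR adjusted p = 0.0941).

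Of 25 intraflagellar transport genes tested 5 rose and 0 fell, with a median log2 fold change of 0.66 and 21 positive estimates. Ift74, an adaptor subunit of the train, averaged 31.0 ± 8.91 CPM in TOM positive, against 6.30 ± 1.53 CPM in TOM negative cells (log2 fold change 2.30 ± 0.39, edgeR adjusted p = 0.00684). Kif3a, a motor subunit of kinesin-2, averaged 93.3 ± 12.3 CPM in TOM positive, against 29.5 ± 11.8 CPM in TOM negative cells (log2 fold change 1.66 ± 0.31, edgeR adjusted p = 0.00959). Both passed whichever 1 of the 6 libraries was left out. Kifap3, with a log2 fold change of 1.31, and Ift81, with 1.24, kept their calls only without TOM positive replicate 2 (adjusted p at most 0.102 and 0.136 in edgeR), and Ift80, with 4.51, only without TOM negative replicate 3 (adjusted p at most 0.139 in edgeR). Kif3a and Kifap3 also carry cargo along axons, and the TOM positive libraries held more neuronal and oligodendrocyte mRNA, in the sums given above. The part of that mRNA in these results was not tested.

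Of 22 transition zone and basal body genes, which form the gate at the base of the cilium, 2 rose and 1 fell. B9d2 was lower, at 9.24 ± 1.87 CPM in TOM positive, against 37.4 ± 8.04 CPM in TOM negative cells (log2 fold change -2.02 ± 0.33, edgeR adjusted p = 0.00578), in all 6 fits. Ahi1, mutated in Joubert syndrome, rose by 1.39 ± 0.31 on the log2 scale and lost its call without TOM negative replicate 2 or 3 (adjusted p at most 0.0810 in edgeR), and Cep290, with 3.20 ± 0.94, lost it without any 1 of the 6 libraries (adjusted p at most 0.123 in edgeR). Of 18 ciliary membrane and receptor trafficking genes 0 rose and 1 fell with edgeR, with 4 at an unadjusted p under 0.05, and DESeq2 called 2 higher and 1 lower. Unc119b, a lipid-binding carrier, had a log2 fold change of -1.55 ± 0.37 and lost its call without TOM negative replicate 2 or 3 (adjusted p at most 0.0672 in edgeR). Arl13b, the GTPase that marks the ciliary membrane, had a log2 fold change of 1.77 ± 0.56 that did not pass (edgeR adjusted p = 0.0598) and did with DESeq2 (DESeq2 adjusted p = 0.0119).

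Adcy3 is 1 of several adenylyl cyclases, and others moved where it did not pass. Of the 7 other cyclase genes tested 2 rose and 1 fell. Adcy5, abundant in striatal neurons, averaged 52.8 ± 16.1 CPM in TOM positive, against 21.8 ± 2.91 CPM in TOM negative cells (log2 fold change 1.28 ± 0.30, edgeR adjusted p = 0.0204). It kept its call in 2 of 6 fits with 1 library left out, losing it without TOM positive replicate 3 or any TOM negative library (adjusted p at most 0.0682 in edgeR). Adcy1, a calcium-stimulated neuronal cyclase, had 207, 53 and 208 counts in TOM positive and 0, 4 and 9 in TOM negative libraries, and kept its call only without TOM positive replicate 2 (adjusted p at most 0.149 in edgeR). Adcy4, known from endothelium, had 0 counts in all TOM positive libraries, against 93, 156 and 118 in TOM negative ones, which is at least 155-fold lower with counting error only (edgeR adjusted p = 0.00578). The sum of 10 endothelial markers was 24.9 to 204 CPM in TOM positive, against 880 to 1085 CPM in TOM negative libraries, and its part in the Adcy4 result was not tested.

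Of 17 genes of cyclic AMP signalling 5 rose and 0 fell, with a median log2 fold change of 1.21. Gng7, a G protein gamma subunit, averaged 98.3 ± 13.6 CPM in TOM positive, against 26.7 ± 11.7 CPM in TOM negative cells, and passed whichever 1 of the 6 libraries was left out. Prkar1b, a regulatory subunit of protein kinase A, rose by 1.51 ± 0.27 on the log2 scale and missed the threshold without TOM negative replicate 2 (edgeR adjusted p = 0.0517). Pde4b, Prkacb and Gnal also passed, with log2 fold changes of 1.21, 1.49 and 4.42, and lost their calls in 3, 4 and 5 of these fits (adjusted p at most 0.0934, 0.117 and 0.117 in edgeR). Pomc, the melanocortin precursor, was the only gene of the melanocortin list tested here (log2 fold change -0.90 ± 0.73, edgeR adjusted p = 0.427). Of 7 transcription factor genes for ciliary programmes 0 passed with edgeR or DESeq2 and 0 had an unadjusted p under 0.05 with either. The smallest p belonged to Foxj1 and Rfx3 (log2 fold changes of 0.53 and 0.71). Of 9 motile cilium genes 2 fell. Spag6l, with 0 counts in each TOM positive library and 57, 93 and 23 in TOM negative ones, was at least 73.0-fold lower with counting error only and lost its call without TOM negative replicate 1 or 2 (adjusted p at most 0.0632 in edgeR). Rsph9 stood at -1.09 ± 0.27 on the log2 scale and lost its call without TOM positive replicate 1 or 3 or TOM negative replicate 1 or 2 (adjusted p at most 0.0779 in edgeR), and without scaling factors (edgeR adjusted p = 0.0585). These stood beside ependymal marker sums of 29.2 to 35.9 CPM in TOM positive, against 71.6 to 111 CPM in TOM negative libraries.

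After AAV-Cre, Arl6 was the one gene of the 9 that passed, and it fell. The share of all genes called was 2.60%, with 0.630% higher and 1.97% lower after AAV-Cre (97 and 303 genes, and 127 and 241 without scaling factors). Arl6 encodes the small GTPase that brings the BBSome to the ciliary membrane. It had 221, 243 and 176 counts in the AAV-Cre libraries and 802, 704 and 662 in the AAV-GFP libraries. In CPM these were 13.8, 16.5 and 12.1 after AAV-Cre, against 41.5, 51.0 and 46.6 after AAV-GFP. Every AAV-Cre library was below every AAV-GFP library, and the groups were far apart relative to their spread. The log2 fold change was -1.71 ± 0.32 with a 95% interval of -2.45 to -0.97 (edgeR adjusted p = 0.0415), which is 0.305 of the AAV-GFP level.

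The call was narrow, although the size was steady. With any 1 of the 6 libraries left out, the log2 fold change stayed between -1.85 and -1.62 while the edgeR adjusted p lay between 0.069 and 0.179, the highest being without AAV-GFP replicate 3. Without AAV-GFP replicate 1, 2 or 3, only 0, 2 and 0 of all genes passed, in that order. A call lost in those fits is therefore not particular to Arl6 or to any gene named below. That does not hold for the fits without AAV-Cre replicate 1, 2 or 3, in which 296, 122 and 283 genes passed. Arl6 did not pass in these (edgeR adjusted p of 0.0738, 0.0809 and 0.0690). Without scaling factors the log2 fold change of Arl6 was -1.56 (edgeR adjusted p = 0.0511), and with DESeq2 the adjusted p was 0.000208. Only 55 of the 2098 exon bases of Arl6, or 2.62%, overlap another gene, which lies on the opposite strand.

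Marker mRNA of several cell types differed between the same libraries. Of 10 ependymal markers 7 fell and 3 did not pass, with a median log2 fold change of -7.06, or -6.63 with the marker at 0 counts after AAV-Cre, Mia, placed at its bound. Their sum was 15.9, 34.2 and 36.4 CPM in the AAV-Cre libraries and 2162, 1093 and 1215 CPM in the AAV-GFP libraries. Arl6 had 41.5, 51.0 and 46.6 CPM in AAV-GFP replicates 1, 2 and 3, and its relation to the ependymal sum was not tested. TOM positive libraries had ependymal sums of 29.2 to 35.9 CPM and 26.2 to 29.3 CPM of Arl6. TOM negative libraries had ependymal sums of 71.6 to 111 CPM and 13.7 to 25.0 CPM of Arl6. The TOM table was scaled separately, and no test was made between the tables. Endothelial markers summed to 29.2 to 62.2 CPM after AAV-Cre, against 470 to 733 CPM after AAV-GFP, and mural markers to 19.1 to 46.4 CPM after AAV-Cre, against 93.8 to 141 CPM after AAV-GFP. Blood markers summed to 0.312 to 42.7 CPM after AAV-Cre, against 707 to 4690 CPM after AAV-GFP. Microglial markers were on the other side, at 5289 to 10408 CPM after AAV-Cre, against 2638 to 4626 CPM after AAV-GFP. The parts of these cell types in the Arl6 result were not tested. The number of genes with at least 1 count was also lower after AAV-Cre, at 14747 to 16988, than after AAV-GFP, at 20778 to 23902, and its part was not tested either.

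**Figure D3:**
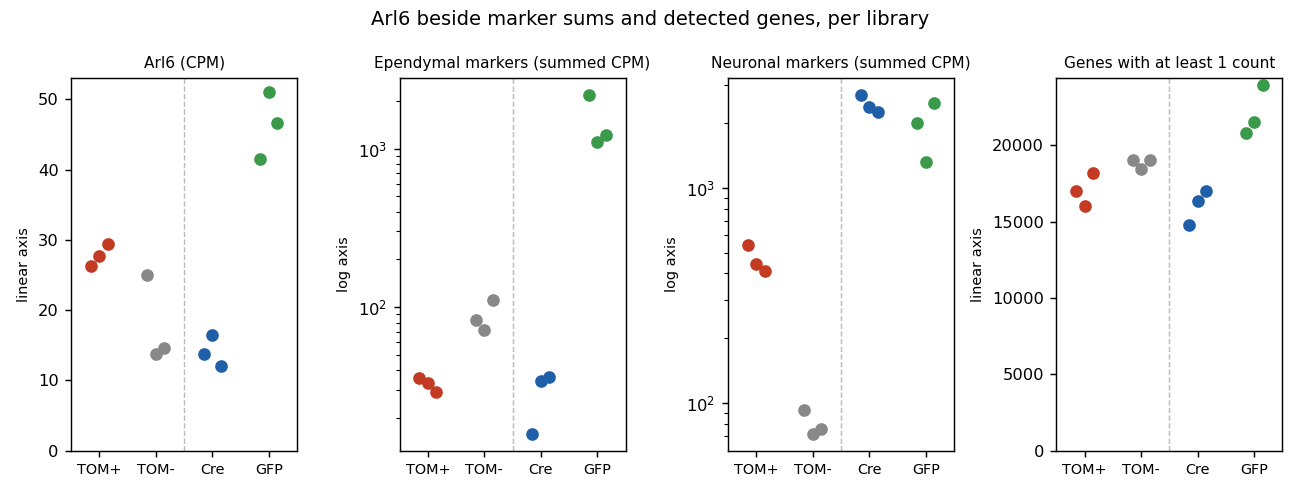
From left to right, Arl6 in CPM (linear axis), summed CPM of 10 ependymal and of 10 neuronal markers (log axes), and the number of genes with at least 1 count (linear axis), for TOM positive, TOM negative, AAV-Cre and AAV-GFP libraries. Each point is a library. Arl6, the ependymal sum and the number of genes detected are each lower in all AAV-Cre libraries than in any AAV-GFP library, while the neuronal sums of 2246 to 2682 CPM after AAV-Cre and 1322 to 2461 CPM after AAV-GFP overlap.

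The promoters of Arl6 and Bbs7 are shown because Arl6 carries the AAV result and Bbs7 had the smallest p of the 9 genes in the TOM comparison. Each is the stretch of 150 bases that ends just before the start of the gene, read 5′ to 3′ on the gene's own strand, from RefSeq on build GRCm38.p6. RefSeq lists 2 starts for Arl6, and the stretch before the upstream one is printed. That is an older assembly than the vM30 coordinates of the files, and no position was converted. The Arl6 stretch is chr16:59639410-59639559 and the Bbs7 stretch chr3:36613390-36613539, both on the minus strand, and capitals mark an X-box, the palindromic site of RFX factors, which drive many ciliary genes.
Arl6: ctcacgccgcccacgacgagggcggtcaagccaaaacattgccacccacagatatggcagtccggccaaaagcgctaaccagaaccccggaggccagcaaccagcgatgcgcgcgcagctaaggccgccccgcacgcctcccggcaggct
Bbs7: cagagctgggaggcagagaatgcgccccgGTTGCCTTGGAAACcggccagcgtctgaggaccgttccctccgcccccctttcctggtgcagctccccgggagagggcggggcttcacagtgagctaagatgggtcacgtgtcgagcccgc

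The X-box was searched on both strands over 250 bases before each start as GTTNCC and GGNAAC with no base or 1, 2 or 3 bases between them. Looser forms of the site and bases after the start were not searched, so a promoter without a match may still hold an X-box. All 9 genes matched RefSeq promoters, 11 in number. The Bbs7 promoter held it once, as GTTGCCTTGGAAAC between 121 and 108 bases before the start, and of all 32544 promoters 0.676% held one. The arm GTTGCC alone, which overlaps the X-box, was in the Bbs7 promoter as well and in 10.3% of all promoters. None of the 11 held the cyclic AMP response element TGACGTCA, which 1.55% of all promoters hold, or the homeodomain core TAATTA, which 4.84% hold. A match is a string of letters and no shown binding site.

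The other 8 genes did not pass after AAV-Cre, and all 9 estimates were below 0. In simulated data this fit recovered 0% of 2-fold and 0% of 4-fold changes. The real fit did call some changes under 4-fold, such as Arl6 at -1.71 and Ift27 at -1.55 on the log2 scale. The simulated rates are therefore not the recovery rates of the real data. Differences of 2-fold or 4-fold could still be missed. The median was -0.39 over the 9 genes and -0.16 over all genes tested. AAV-Cre and AAV-GFP libraries were fully separated in 2 of the 9 genes, Arl6 and Ttc8, or 22.2%, and in 28.5% of all genes tested. Ttc8, the BBSome subunit also called BBS8, had 18.1, 27.7 and 25.8 CPM after AAV-Cre, against 39.8, 47.4 and 33.1 CPM after AAV-GFP (log2 fold change -0.75 ± 0.33, interval -1.52 to 0.03, edgeR adjusted p = 0.281). Bbs7 had 17.3, 12.6 and 8.79 CPM after AAV-Cre, against 28.1, 23.6 and 15.6 CPM after AAV-GFP, which overlapped (log2 fold change -0.80 ± 0.46, edgeR adjusted p = 0.410). Bbs2 had 27.4 ± 5.31 CPM after AAV-Cre, against 32.2 ± 7.53 CPM after AAV-GFP, with an interval of -1.04 to 0.57 on the log2 scale.

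Adcy3 had 12.0, 15.9 and 13.5 CPM after AAV-Cre, against 8.48, 35.4 and 9.71 CPM after AAV-GFP. The log2 fold change of -0.37 ± 0.64 (edgeR adjusted p = 0.822) rested on AAV-GFP replicate 2 and was 0.59 without that library. Cenpo, which shares exon bases with Adcy3, had 504, 46 and 154 counts after AAV-Cre, against 86, 57 and 76 after AAV-GFP. Bbs1, Bbs4, Bbs5 and Bbs9 had log2 fold changes of -0.43, -0.39, -0.36 and -0.11 with edgeR adjusted p between 0.692 and 0.953, and groups that overlapped. Each of these 4 changed sign when some 1 library was left out. For Bbs1 that library was AAV-GFP replicate 2 (0.08), for Bbs4 AAV-GFP replicate 1 (0.08), for Bbs5 AAV-Cre replicate 3 (0.02) and for Bbs9 AAV-Cre replicate 3 or AAV-GFP replicate 1 (0.28 and 0.35). Bbs2 came to 0.00 without AAV-GFP replicate 1.

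For the gene lists below, the share of all genes called after AAV-Cre was 2.60%, with 0.630% higher and 1.97% lower. Of 17 genes for BBSome assembly and partners 1 fell, with a median of -0.05 beside -0.16 over all genes tested. It was Ift27, which encodes the transport subunit that links to the BBSome and to Arl6, at 36.7 ± 7.12 CPM after AAV-Cre, against 108 ± 21.7 CPM after AAV-GFP (log2 fold change -1.55 ± 0.30, edgeR adjusted p = 0.0448). Rabl2 averaged 26.1 ± 5.99 CPM after AAV-Cre, against 60.3 ± 21.6 CPM after AAV-GFP, and did not pass (edgeR adjusted p = 0.138). Of 26 intraflagellar transport genes 1 fell with edgeR and 4 with DESeq2, and 20 had negative edgeR estimates, with a median of -0.88. Dync2li1, a light chain of the retrograde motor dynein-2, had 22.1 ± 2.42 CPM after AAV-Cre, against 63.7 ± 11.4 CPM after AAV-GFP (log2 fold change -1.53 ± 0.29, edgeR adjusted p = 0.0436). Ift43 stood at -1.24 ± 0.31 on the log2 scale and did not pass (edgeR adjusted p = 0.0728).

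Of 22 transition zone and basal body genes 2 fell, with a median of -0.996. Tctn2, a tectonic protein gene, had 68, 144 and 128 counts after AAV-Cre, against 1497, 1235 and 621 after AAV-GFP (log2 fold change -3.21 ± 0.47, edgeR adjusted p = 0.0258), and B9d1 stood at -1.53 ± 0.31 on the log2 scale (edgeR adjusted p = 0.04997). Ift27, Dync2li1 and B9d1 lost their calls without any 1 of the 6 libraries and without scaling factors (adjusted p at most 0.175, 0.167 and 0.180 in edgeR), B9d1 also with RLE size factors. Tctn2 kept its call only without AAV-Cre replicate 1 (adjusted p at most 0.135 in edgeR). Of 21 ciliary membrane and receptor trafficking genes 0 passed with edgeR, with 4 at an unadjusted p under 0.05, and DESeq2 called 2 lower. Among them Npy2r, a ciliary neuropeptide Y receptor gene, had 0 counts in all AAV-Cre libraries, against 114, 38 and 13 in AAV-GFP ones, at least 52.7-fold lower by counting error only (edgeR adjusted p = 0.0583, DESeq2 adjusted p = 0.00259), and Arl3 stood at -1.22 ± 0.34 on the log2 scale (edgeR adjusted p = 0.0972).

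Of 15 motile cilium genes tested 6 fell with edgeR and 9 did not pass, 14 had an unadjusted p under 0.05, and DESeq2 called 12 lower. The median log2 fold change was -4.16. Spag6l and Rsph4a, of the axoneme's central pair and radial spokes, were at 0 counts in all AAV-Cre libraries, against 5562 and 2697 counts over the AAV-GFP group, at least 1775-fold and 861-fold lower by counting error only. Both lost their calls without any 1 AAV-GFP library (adjusted p at most 0.108 and 0.125 in edgeR). In those fits at most 2 of all genes passed, so the loss is not particular to these genes. Foxj1, the regulator of motile ciliogenesis, averaged 4.08 ± 1.05 CPM after AAV-Cre, against 40.2 ± 38.1 CPM after AAV-GFP, and did not pass with edgeR (adjusted p = 0.0556). It passed with DESeq2 (DESeq2 adjusted p = 0.000225). Of 7 transcription factor genes 0 passed with edgeR, with 3 at an unadjusted p under 0.05, and DESeq2 called 2 lower. Rfx5 stood at 1.35 ± 0.53 on the log2 scale (edgeR adjusted p = 0.224). The parts of ependymal cells and of cilium genes in other cells were not tested.

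Of 8 other adenylyl cyclase genes 1 fell after AAV-Cre. Adcy4 had 0 counts in all AAV-Cre libraries, against 133, 53 and 60 in AAV-GFP ones, at least 78.5-fold lower by counting error only (edgeR adjusted p = 0.0434), and kept its call only without AAV-Cre replicate 1 (adjusted p at most 0.180 in edgeR). Endothelial marker sums were lower after AAV-Cre, as given beside Arl6, and their part was not tested. Adcy5 had 113 ± 21.8 CPM after AAV-Cre, against 53.2 ± 14.4 CPM after AAV-GFP (edgeR adjusted p = 0.105, DESeq2 adjusted p = 0.0218). Of 17 cyclic AMP signalling genes 0 passed with edgeR, with 3 at an unadjusted p under 0.05. Pde4b and Gng7 had log2 fold changes of 1.01 and 0.97 (edgeR adjusted p of 0.128 and 0.136), and these 2 passed with DESeq2 (DESeq2 adjusted p of 0.0389 and 0.0343). Of 4 melanocortin genes 0 passed with edgeR or DESeq2, with 2 at an unadjusted p under 0.05 with either. Mc4r came out at least 14.7-fold lower with counting error only (edgeR adjusted p = 0.0596), and Pomc stood at -1.67 ± 0.68 on the log2 scale (edgeR adjusted p = 0.243).

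**Figure D4:**
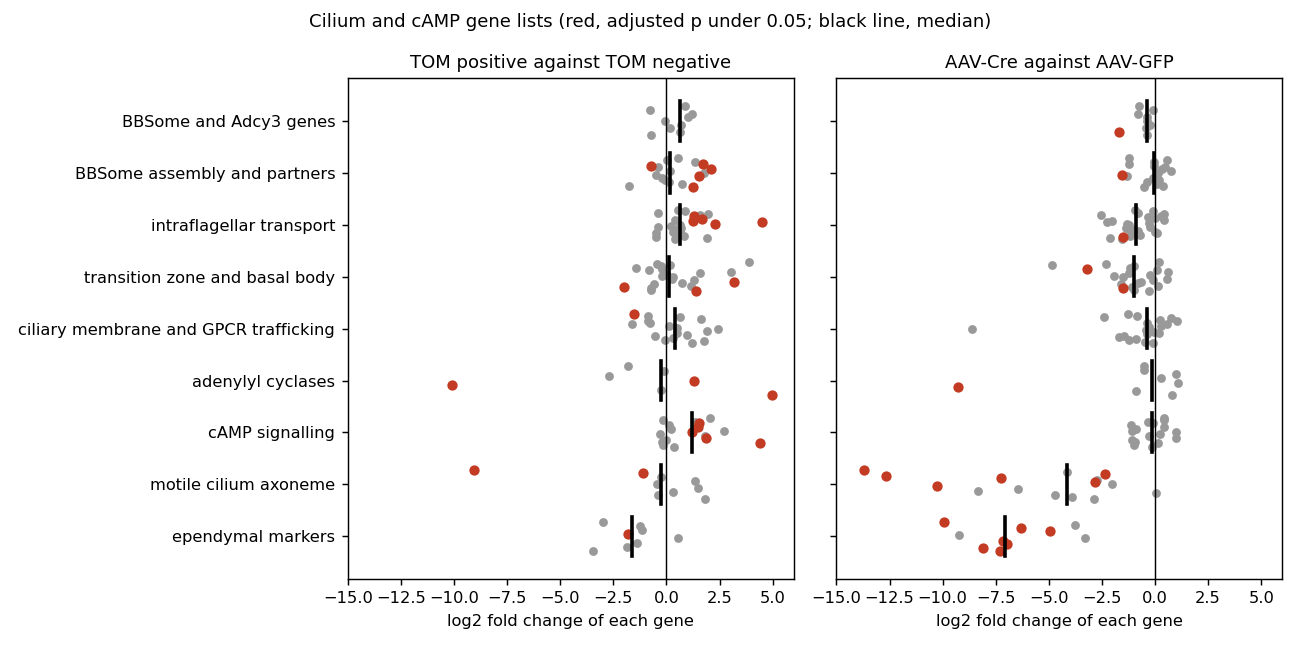
Log2 fold change of each tested gene in the BBSome and Adcy3 group, 6 lists of cilium and cyclic AMP genes, motile cilium genes and ependymal markers, for TOM positive against TOM negative (left) and AAV-Cre against AAV-GFP (right). Red points have an adjusted p under 0.05, black lines are medians, and points beyond about 8 below 0 include genes with 0 counts in a group, whose fitted position depends on the prior count. Medians of the motile cilium and ependymal lists after AAV-Cre are -4.16 and -7.06, against -0.39 for the 9 genes.

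The profiles of the 9 genes over the 12 libraries were compared by distance. With log2 CPM centred on each table, the root mean square difference between members ran from 0.48 between Bbs2 and Bbs5, and 0.49 between Ttc8 and Arl6, up to 1.46 between Bbs1 and Bbs5, where Bbs1 includes the TOM positive library with 16 counts. Adcy3 was closest to Bbs1, at 0.80. Among 12585 other genes the ones nearest to Adcy3 were Gigyf1, Mllt1 and Stt3b, at 0.32, 0.35 and 0.36, where the median gene stood at 1.00. Nearest to the mean of the 8 other members were Hmgn2-ps, Pwwp3a and Tmx1, at 0.16, 0.23 and 0.23, with a median gene at 0.81. These distances describe 12 libraries that fall into 4 groups, and carry no test.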

How the data were processed

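The authors deposited raw read counts, unscaled whole numbers listed by gene symbol, in 2 joint tables. Each of 6 single-library AAV files held the same counts as the joint table. FastQC, Trim Galore, STAR, featureCounts and build mm10 are named, per the submitters' processing notes. AAV read pairs were counted by featureCounts 2.0.1 against GENCODE vM30 by gene name, per the file headers, with no option set for strand, multi-mapping or overlapping genes, so that multi-mapping and multi-gene reads were left out and strand was ignored. That annotation belongs to a later assembly than mm10, so printed gene coordinates are the files' own. For the TOM table the counting options were not given in any source used here, and the vM30 exon lengths were applied to it. A SMART-Seq kit without stated molecular identifiers was used, per the labels' protocols, so counts include PCR copies and bounds cover counting error only. A gene and its antisense partner cannot be told apart.

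For each comparison its 6 libraries were fitted in edgeR 4.0.16 under R 4.3.3 (TMM, filterByExpr with a minimum count of 10, quasi-likelihood test, two-sided, Benjamini-Hochberg over all genes tested, threshold 0.05). SEs come from the log2 fold change and the root of F, and intervals are at 95%. CPM used TMM-scaled totals. A fold against a group at 0 is a lower bound against 3 counts over the group. Log2 CPM for profiles used a prior count of 2. Alternatives were RLE, no scaling, no filter, a replicate block, DESeq2 1.42.0, all 12 libraries in one fit, removal of mitochondrially encoded genes and each library left out. Transcript lengths of GENCODE vM21 were tried after seeing the data. No pair of libraries agreed within sampling noise (chi-square per degree of freedom of 44.6 or more). The fits were tested on simulated data with 200 changed genes. Of 2-fold changes 0% were recovered in either comparison. Of 4-fold changes 26% were recovered in the TOM and 0% in the AAV comparison. The real fits differed in the number of changed genes and called some changes of smaller size. These rates are therefore not the recovery rates of the real data. The members and lists were chosen with earlier results of these data known. Named genes are the 9 members, Mc4r, Otp, the 2 genes with the smallest p of each cilium or cyclic AMP list, its called genes where 5 or fewer passed, and the nearest profiles. Cenpo and Mia were named after their values were seen.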

Additional observations from a re-analysis of the deposited data

How the results depend on the processing

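With library totals in place of scaling factors, 1 of the 9 genes passed in the TOM comparison (Bbs7) and 0 in the AAV comparison, the median of all genes moved from -0.02 to 0.24 and from -0.16 to -0.0018. That setting also turned Bbs4 in the TOM comparison (0.20) and Bbs9 in the AAV comparison (0.0082). Over all genes, the TOM comparison called 3635 genes and the AAV comparison 400. The AAV count was 712 without a count filter, 1531 with DESeq2 and 698 with all 12 libraries in one fit. DESeq2 replaces scaling, spread model and test together, and the joint fit also changes the filter and scaling (17332 genes tested). With a replicate block the counts were 1987 and 0 genes, 0 of the 9 genes passed in the AAV comparison (Arl6 at -1.72, edgeR adjusted p = 0.204), and Bbs1 in the TOM comparison turned to -0.47. Same-numbered libraries deviated together with correlations of -0.03 to 0.02 and -0.07 to -0.06. With 3 libraries per group, such values cannot show whether the replicate numbers pair the samples. Leaving out 1 library gave 1511 (without TOM negative replicate 2) to 3547 calls in the TOM comparison and 0 (without AAV-GFP replicate 1 or 3) to 296 in the AAV comparison (2 without AAV-GFP replicate 2 and 122 without AAV-Cre replicate 2), with 0 of the 9 genes in each of these 12 fits. The log2 fold changes that turned in such fits ran from -0.49 to 0.72 for Bbs1 and -0.40 to 0.13 for Bbs4 in the TOM comparison, and in the AAV comparison from -0.62 to 0.59 for Adcy3, -1.25 to 0.075 for Bbs1, -0.33 to 0.0022 for Bbs2, -0.73 to 0.076 for Bbs4, -1.10 to 0.021 for Bbs5 and -0.61 to 0.35 for Bbs9. Of 117 values of the 9 genes under the alternatives, 109 kept direction and call in the TOM comparison and 101 in the AAV comparison. For genes not called, keeping the call means that they again did not pass. In the AAV comparison 8 values turned and 8 lost the call, all 8 of Arl6, the only gene of the 9 that had one. The cause of these changes was not tested. Counts of 16 to 1990 per library limit the precision of the 9 genes.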
